A study of Mus musculus with 24 samples.

Results

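The B cell and plasma cell genes described here are Ms4a1, Cd79a, Cd79b, Jchain, Mzb1, Ighm, Ighg1, Igkc and Cxcl13, chosen by symbol, 9 of the 54532 genes counted in mouse pancreatic tumours. Ms4a1, Cd79a and Cd79b mark B cells, Jchain and Mzb1 mark cells that secrete antibody, Ighm, Ighg1 and Igkc encode the constant parts of antibody chains, and Cxcl13 encodes a chemokine that draws B cells. All 9 symbols matched 1 row each, and all 9 passed the filter on low counts. Igkc, Ighm and Jchain carried most of the reads, and Ms4a1 had the fewest. Ighg1 had a median of 17.5 reads per library.

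B cells carry a membrane antibody joined to the signalling chains CD79A and CD79B, and most display CD20, the product of Ms4a1. When a B cell becomes a plasma cell it loses much of this surface display and makes antibody messenger RNA in very large amounts, so that a small number of plasma cells can supply most antibody transcripts of a tissue. IgM is the first antibody made, and class switching replaces its heavy chain by an IgG, IgA or IgE chain. In tumours, B cells and plasma cells often gather in lymphoid aggregates, where CXCL13 acts through its receptor CXCR5.

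Bulk RNA sequencing covered 4 groups of 6 samples collected on day 24, a PBS control group and the groups GEM, IGEL and LIGEL. The series concerns losartan priming followed by a nanocarrier that combines chemotherapy with immunotherapy in pancreatic cancer, and the labels do not expand the 3 abbreviations, so no agent is assigned to a group. The tissue label is pancreatic tumour although the sample titles begin with muscle, and no strain, tumour line, age, sex, cage or batch is given. The labels do not say that the samples of a group are separate mice, and the p-values cover the spread among the samples as given, part of which may be technical.

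Library totals ranged from 27.1 to 40.5 M counts. PBS replicate 5 stood apart, with a composition factor of 0.548 where the next lowest library had 0.850 and the highest 1.09. A list of 15 acinar cell genes (digestive enzymes and their regulators, which mark the normal exocrine pancreas) took 36.2% of its counts (Wilson 95% interval 36.1 to 36.2%), and between 0.00572% and 15.7% in the other 23 libraries. Of the 15 acinar genes, 12 had reads in all 24 libraries. Count columns named A1 to A3 belong to 6 libraries, GEM replicates 1, 2 and 3, IGEL replicate 1 and LIGEL replicates 1 and 2. These columns come in pairs with suffix 1 and 2, while all other columns have suffix 1. A1 holds IGEL replicate 1 and GEM replicate 1, A2 holds GEM replicates 2 and 3, and A3 holds LIGEL replicates 1 and 2. What the name stands for, and whether paired columns share a source, is not given in the sources used here. Each was treated as a separate library. Values without PBS replicate 5 are given beside many, not all, of the counts and directions that leaving it out changed.

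Upstream sequences were available for 3 of the 9 genes and are shown because these genes stand for the B cell surface (Cd79a), the secreting cell (Jchain) and the chemokine (Cxcl13). Each is the 250 bases before the RefSeq start site on GRCm38.p6, written 5′ to 3′ on the strand of the gene, for Cd79a at chr7:24897247-24897496 on the plus strand, Jchain at chr5:88527898-88528147 on the minus strand and Cxcl13 at chr5:95956689-95956938 on the plus strand. Capitals mark the motif matches described after them.
Cd79a: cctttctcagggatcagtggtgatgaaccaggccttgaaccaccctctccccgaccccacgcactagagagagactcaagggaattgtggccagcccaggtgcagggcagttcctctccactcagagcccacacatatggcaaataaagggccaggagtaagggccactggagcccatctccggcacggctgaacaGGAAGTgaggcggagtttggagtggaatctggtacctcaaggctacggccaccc
Jchain: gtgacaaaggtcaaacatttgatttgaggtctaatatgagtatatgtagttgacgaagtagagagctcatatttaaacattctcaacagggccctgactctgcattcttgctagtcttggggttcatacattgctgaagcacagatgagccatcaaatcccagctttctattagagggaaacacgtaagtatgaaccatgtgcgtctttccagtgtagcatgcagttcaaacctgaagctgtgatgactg
Cxcl13: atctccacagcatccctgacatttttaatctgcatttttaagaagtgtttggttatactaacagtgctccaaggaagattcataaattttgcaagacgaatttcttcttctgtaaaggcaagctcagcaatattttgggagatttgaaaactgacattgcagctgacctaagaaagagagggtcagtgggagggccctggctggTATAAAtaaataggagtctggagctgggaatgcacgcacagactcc
The search covered 4 motifs on both strands, none of which overlaps another, the octamer ATGCAAAT known from antibody gene promoters, the palindromic EBF motif, the ETS core GGAAGT and the TATA box TATAAA. Cd79a held 1 ETS core, 54 bases before its RefSeq start, a motif found in 19.7% of the 32851 promoter windows of the same table. The counted Cd79a gene begins earlier, at 24897381. The end of this window, with the ETS core, therefore lies inside the gene as counted. Cxcl13 held 1 TATA box, 46 bases before its start, found in 12.4% of the windows. Jchain held none of these letters. Exact matches to the octamer (1.6% of windows) and the EBF motif (0.779%) were in none of the 3 windows. The Jchain and Cxcl13 windows contained 42.0% G and C and that of Cd79a 58.8%.

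Expression was scaled as CPM, counts per M counts, on totals corrected by the composition factor, and levels of different genes are compared only per kilobase of gene length. Igkc, the kappa light chain constant gene at chromosome 6, 70726435 to 70726966, had the highest mean level at 62.9 CPM per kb. Ighm followed at 9.47 CPM per kb and Jchain at 3.1 CPM per kb. Cxcl13 (1.01), Cd79b (0.909), Ighg1 (0.855), Cd79a (0.582) and Mzb1 (0.5) lay between 0.5 and 1.1 CPM per kb. Ms4a1 was lowest, at 0.042 CPM per kb. The abundance behind these levels ranged from a median of 912.5 reads per library for Igkc and 311 for Ighm to 28.5 for Cd79a, 11.5 for Mzb1 and 6 for Ms4a1. A count of 3 reads, the limit that a count of 0 allows, corresponded to between 0.0706 and 0.202 CPM depending on the library.

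**Figure D1:**
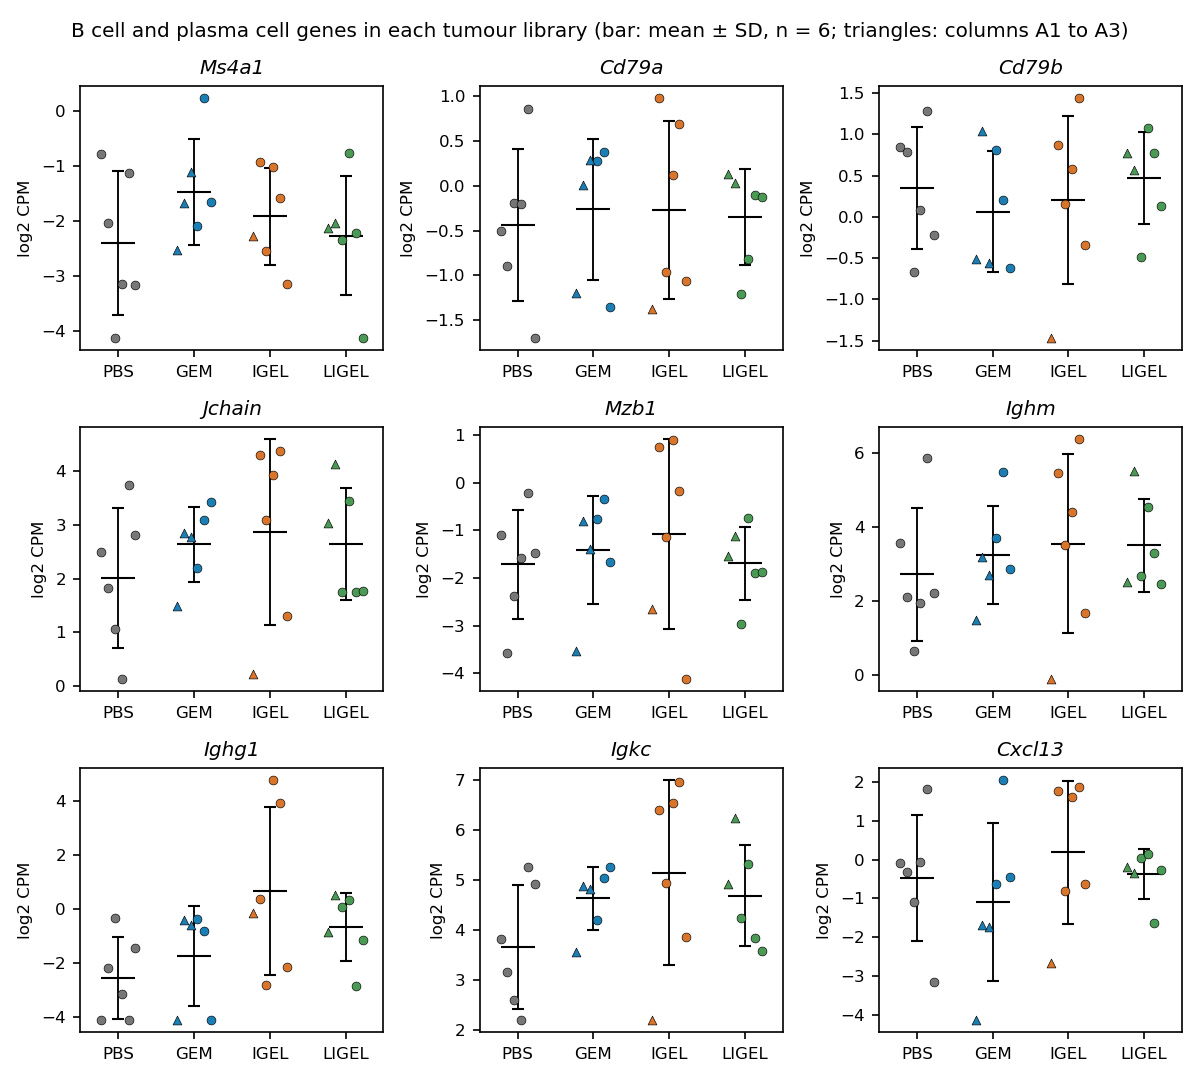
Log2 CPM of the 9 genes (vertical axis, 1 panel each) in the 24 libraries by group (horizontal axis), with points for libraries, triangles for the 6 libraries of columns A1 to A3, and bars for the mean and SD of 6 libraries. The groups overlap in every panel, and IGEL spans the widest range for Igkc, Jchain, Mzb1, Ighm, Ighg1 and Cd79b.

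Igkc pairs with any heavy chain and so counts most mouse antibody output at once. Its level was 4.55, 11.4 and 38.5 CPM (lowest, median and highest) in PBS, 11.8, 28.9 and 38.3 CPM in GEM, 4.5, 57.3 and 124 CPM in IGEL, and 11.9, 24.5 and 75.7 CPM in LIGEL. IGEL held both the highest library (replicate 5) and the lowest of all 24 (replicate 1), and its values therefore overlapped those of every other group. The means were 17 ± 14 CPM for PBS, 26.5 ± 9.79 for GEM, 58.5 ± 48.6 for IGEL and 31.8 ± 24 for LIGEL (SD, n = 6 each). The log2 fold change against PBS was 1.79 ± 0.65 (SE) in IGEL, 0.91 ± 0.64 in LIGEL and 0.65 ± 0.63 in GEM. In edgeR the IGEL difference was the only one of these 3 with an unadjusted p below 0.05, and its adjusted p was 0.306.

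Ighm, at chromosome 12, 113418558 to 113422730, encodes the heavy chain of IgM. It was at 1.5, 4.4 and 58.4 CPM in PBS, at 2.75, 8.14 and 45.2 CPM in GEM, at 0.860, 16.2 and 83.6 CPM in IGEL, and at 5.49, 8.04 and 46.2 CPM in LIGEL. The highest library was replicate 5 in PBS, GEM and IGEL and replicate 2 in LIGEL, each far above its group's median. Another LIGEL library, outside columns A1 to A3, was at 23.1 CPM. The IGEL against PBS log2 fold change was 0.98 ± 0.94, and 2.40 ± 0.94 without PBS replicate 5, whose removal took the PBS mean from 14 ± 22 to 5.17 ± 3.87 CPM (SD, n = 5). The adjusted p without that library was 0.307.

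Ighg1 (chromosome 12, 113325240 to 113330523) encodes the IgG1 heavy chain, a product of class switching. It had 0 reads in PBS replicates 1 and 5 and GEM replicates 1 and 6, and at most 0.738 CPM in PBS, 0.713 CPM in GEM and 1.37 CPM in LIGEL. The 6 IGEL libraries measured 0.835, 1.25, 0.0856, 27.3, 15.3 and 0.169 CPM in the order of their replicate numbers. Replicates 4 and 5 were thus above every library of the other groups, while the other 4 IGEL libraries lay within the range of LIGEL. The log2 fold change of IGEL was 5.05 ± 1.30 against PBS (adjusted p = 0.306) and 4.13 ± 1.22 against GEM (adjusted p = 1.0). Against PBS it was 3.97 without IGEL replicate 4 and 4.72 without IGEL replicate 5, and over the alternatives of processing the adjusted p ranged from 0.0279 to 0.567. DESeq2 alone called it (log2 fold change 5.10 ± 1.22, adjusted p = 0.0279), whereas limma voom gave 2.83 ± 2.01 (adjusted p = 0.540). LIGEL differed from IGEL by a log2 fold change of -3.30 ± 1.17 (adjusted p = 1.0), from PBS by 1.75 ± 1.19 and from GEM by 0.83 ± 1.13, and GEM differed from PBS by 0.92 ± 1.19. IGEL replicate 4, the highest library for Ighg1, also held the highest summed level of 10 skeletal muscle genes, 285 CPM, and an acinar share of 8.60% (Wilson 95% interval 8.59 to 8.61%). The muscle sum was 9.87 to 22.4 CPM in PBS, 11.8 to 19.7 CPM in GEM and 13.2 to 24.1 CPM in LIGEL, 4 of the 10 muscle genes passed the filter, and Myh4, a fast muscle myosin, had reads in 3 of the 24 libraries. The part of these tissues in the Ighg1 value was not tested.

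Jchain, at chromosome 5, 88519809 to 88527891, encodes the chain that joins IgM and IgA into polymers, and is made by antibody-secreting cells. Its lowest, median and highest levels were 1.03, 4.52 and 13.4 CPM in PBS, 2.75, 6.99 and 10.8 CPM in GEM, 1.11, 11.8 and 20.9 CPM in IGEL, and 3.30, 5.75 and 17.6 CPM in LIGEL. PBS replicate 5, IGEL replicate 5 and LIGEL replicate 2 were the highest of their groups for both Jchain and Igkc, and IGEL replicate 1 was the lowest of its group for both. The group means were 5.42 ± 4.50, 6.76 ± 2.85, 11.3 ± 8.56 and 7.76 ± 5.75 CPM in that order (SD, n = 6 each). The log2 fold change against PBS was 1.07 ± 0.64 in IGEL (adjusted p = 0.402) and 0.53 ± 0.63 in LIGEL, and without PBS replicate 5 it was 1.55 ± 0.66 in IGEL.

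Mzb1, at chromosome 18, 35647266 to 35649367, encodes an endoplasmic reticulum protein that assists antibody assembly in marginal zone B cells and plasma cells. It measured 0.0268 to 0.811 CPM in PBS, 0.0293 to 0.733 CPM in GEM, 0 to 1.81 CPM in IGEL and 0.0706 to 0.538 CPM in LIGEL. IGEL replicates 4 and 2 exceeded every other library and IGEL replicate 6 had 0 reads, so the highest and the lowest value fell in the same group. Its mean was 0.328 ± 0.272 CPM for PBS, 0.399 ± 0.247 for GEM, 0.794 ± 0.771 for IGEL and 0.288 ± 0.164 for LIGEL (SD, n = 6 each). The log2 fold change was 1.34 ± 0.80 in IGEL against PBS (adjusted p = 0.406), 1.76 ± 0.84 without PBS replicate 5, and -1.45 ± 0.79 in LIGEL against IGEL.

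Cd79a (chromosome 7, 24897381 to 24902197) and Cd79b (chromosome 11, 106311341 to 106314762) encode the signalling chains of the B cell receptor. Cd79a was at 0.25, 0.729 and 1.76 CPM in PBS, 0.335, 1.05 and 1.24 CPM in GEM, 0.329, 0.742 and 1.92 CPM in IGEL, and 0.377, 0.867 and 1.04 CPM in LIGEL. Cd79b was at 0.574, 1.33 and 2.36 CPM in PBS, 0.595, 0.871 and 2.0 CPM in GEM, 0.304, 1.24 and 2.65 CPM in IGEL, and 0.659, 1.53 and 2.05 CPM in LIGEL. Their ranges overlapped across the 4 groups, and PBS replicate 5 and IGEL replicate 5 were among the 3 highest libraries for both. In IGEL against PBS the log2 fold change was 0.29 ± 0.48 for Cd79a (95% interval -0.64 to 1.23) and -0.02 ± 0.45 for Cd79b (95% interval -0.90 to 0.85), so that a log2 fold change of 1 lies inside the first interval and outside the second. Cd79b differed by -0.27 ± 0.45 between GEM and PBS and by 0.09 ± 0.44 between LIGEL and IGEL. Its sign changed with the setting when IGEL was compared with PBS or with LIGEL.

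Ms4a1 (chromosome 19, 11249675 to 11266241) encodes CD20. It measured 0 to 0.530 CPM in PBS, 0.117 to 1.13 CPM in GEM, 0.0563 to 0.473 CPM in IGEL and 0 to 0.538 CPM in LIGEL, with 0 reads in PBS replicate 3 and LIGEL replicate 6. GEM replicate 5 was alone above 0.6 CPM, and the other libraries of the 4 groups overlapped. Its log2 fold change was 0.99 ± 0.79 in GEM and 0.36 ± 0.79 in IGEL against PBS, and relative to GEM it was -0.63 ± 0.76 for IGEL and -0.95 ± 0.77 for LIGEL. All 4 differences were less than 1.5 times their standard errors, at a median of 6 reads per library.

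Cxcl13, at chromosome 5, 95956951 to 95961068, encodes the chemokine that draws B cells and follicular helper T cells. It was at 0.0555, 0.817 and 3.44 CPM in PBS, 0, 0.425 and 4.06 CPM in GEM, 0.101, 1.77 and 3.54 CPM in IGEL, and 0.266, 0.788 and 1.05 CPM in LIGEL. IGEL replicates 2, 4 and 5, PBS replicate 5 and GEM replicate 5 were above 2.9 CPM, and no LIGEL library reached 1.1 CPM. The log2 fold change was 0.83 ± 0.90 in IGEL against PBS (adjusted p = 0.652), 1.61 ± 0.92 without PBS replicate 5, -0.44 ± 0.91 in LIGEL against PBS and -1.27 ± 0.90 in LIGEL against IGEL, with all 4 standard errors close to 1 on the log2 scale. Without PBS replicate 5 the LIGEL against PBS value turned to 0.35 ± 0.91.

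Across the 6 comparisons edgeR called none of the 9 genes at an adjusted p below 0.05, and none of the 19253 genes tested (0.0% in each comparison). At an unadjusted p below 0.05, 2 of the 9 were higher in IGEL than in PBS (Ighg1 and Igkc), beside 5.79% of all genes. Relative to GEM, 1 of 9 was higher in IGEL (Ighg1), beside 0.878% of all genes. Relative to IGEL, 1 of 9 was lower in LIGEL (Ighg1), beside 0.831%. None of the 9 passed the unadjusted threshold for GEM or LIGEL relative to PBS (background 4.81% and 20.5%) or for LIGEL relative to GEM (background 3.16%). DESeq2 called 1 member over the 6 comparisons, Ighg1 in IGEL against PBS, where it called 0.444% of genes, and it gave Ms4a1 and Mzb1 no adjusted p there. DESeq2 called 6.42% of genes in LIGEL against PBS and 0.0% in the other 4 comparisons. Limma voom called 0 of the 9, beside 0.343% of genes for GEM, 1.99% for IGEL and 3.78% for LIGEL, each against PBS, and 0.0% between treated groups.

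The median log2 fold change of the 9 genes was 0.98 for IGEL, 0.33 for GEM and 0.07 for LIGEL relative to PBS, with medians over all genes of -0.02, -0.02 and -0.03. Relative to GEM it was 0.92 for IGEL and 0.20 for LIGEL, and between LIGEL and IGEL it was -0.77. Of the 9 genes, 8 had a higher fitted level in IGEL than in PBS, and Cd79b did not. Without PBS replicate 5, all 9 did. The comparisons with PBS share the same 6 control libraries, and those with IGEL the same 6 IGEL libraries. The group ranges did not separate for any of the 9 genes in any comparison. Over all genes they separated for 0.0935% (GEM), 0.452% (IGEL) and 1.02% (LIGEL) relative to PBS, for 0.109% (IGEL) and 0.223% (LIGEL) relative to GEM, and for 0.119% between LIGEL and IGEL. In bulk tissue, a larger number of B or plasma cells and more RNA per cell cannot be told apart.

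PBS replicate 5 was the highest PBS library for 7 of the 9 genes, all except Ms4a1 and Ighg1. Without it, 5 of the 9 were higher in IGEL than in PBS at an unadjusted p below 0.05 (Ighg1, Igkc, Ighm, Jchain and Mzb1), beside 5.22% of all genes, and the members' median log2 fold change was 1.61. No member passed the adjusted threshold in that fit either, where 0.0922% of genes did. The part of its acinar tissue in these values was not tested.

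**Figure D2:**
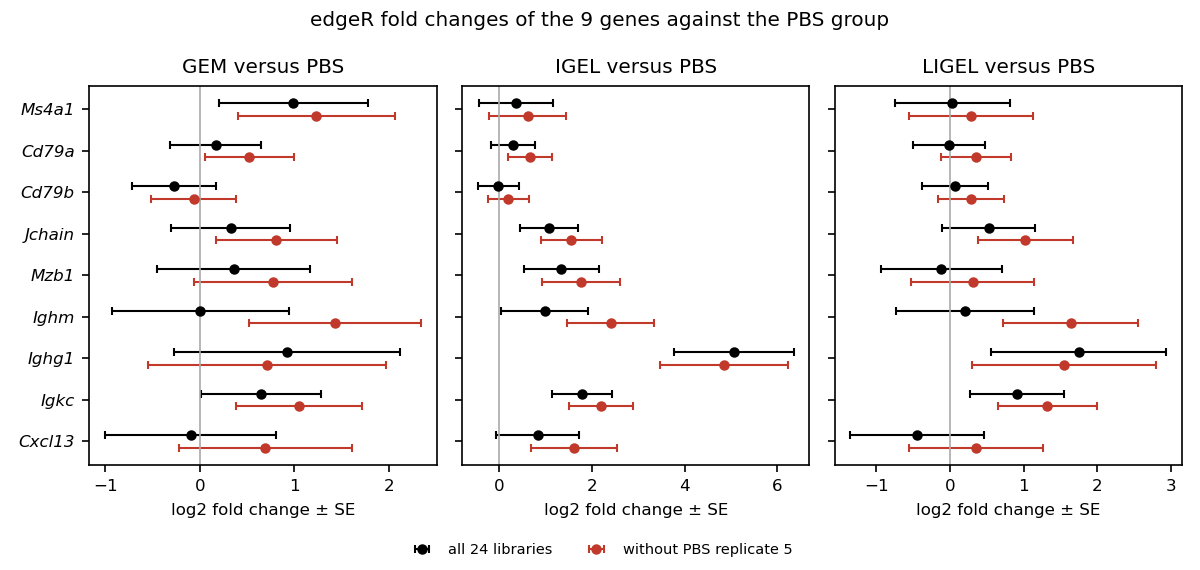
edgeR log2 fold changes with standard errors (horizontal axis) for the 9 genes (vertical axis) in GEM, IGEL and LIGEL against PBS, with all 24 libraries in black and without PBS replicate 5 in red. Ighg1 and Igkc in IGEL lie farthest from 0 relative to their errors, and Ighm moves most, from 0.98 to 2.40 in IGEL, when PBS replicate 5 is left out.

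The antibody constant genes form a list of 12 that includes Ighm, Ighg1 and Igkc. Of the 12, 9 passed the filter, and 7 of these 9 measured higher in IGEL than in PBS at an unadjusted p below 0.05 (5.79% of all genes were higher), none was lower, and none passed after adjustment (lowest adjusted p 0.306). The 7 were Igha, Ighg2c, Ighg2b, Ighg1, Ighg3, Igkc and Iglc1, and the list's median log2 fold change was 2.01. Igha, the IgA heavy chain, averaged 22 ± 8.05 CPM (PBS), 38.9 ± 15.4 CPM (GEM), 68.2 ± 47.3 CPM (IGEL) and 53 ± 34.5 CPM (LIGEL) (SD, n = 6 each). Its log2 fold change was 1.63 ± 0.51 in IGEL and 1.27 ± 0.50 in LIGEL against PBS. Ighg2c, the IgG2c heavy chain, was at 6.47 ± 10.3 CPM in PBS and 51.3 ± 56.1 CPM in IGEL, a log2 fold change of 2.98 ± 0.97. Ighg2b had 2.11 ± 0.91 on the same scale. Ighg3 had 3.62 ± 1.2, and Iglc1, a lambda light chain gene, 2.01 ± 0.89. Single libraries moved these values. Ighg2c was at 2.38 without IGEL replicate 4 and 4.52 without PBS replicate 6. Ighg2b was at 1.62 without IGEL replicate 5 and 3.04 without PBS replicate 6. Ighg3 was at 2.71 and 4.33 without those same libraries, and Iglc1 at 1.01 without IGEL replicate 2. The choice to name Ighd, Ighg2b, Ighg3 and Iglc1 followed a look at their values. The 7 of 9 genes at the unadjusted threshold became 6 of 9 without PBS replicate 5, beside 5.22% of all genes. They became 4 when only the 12 IGEL and PBS libraries were fitted, a fit without a share of all genes.

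In LIGEL against PBS, 1 of the 9 tested constant genes was higher at an unadjusted p below 0.05 (Igha), beside 6.28% of all genes, with a list median of 1.2. In LIGEL against IGEL, 3 of 9 were lower at that threshold, beside 0.831% of all genes. They were Ighg1, Ighg3 (log2 fold change -2.42 ± 1.12) and Iglc1 (-2.26 ± 0.90). All 9 had a lower fitted level, and the median was -1.40. Relative to GEM, 2 of 9 were higher in IGEL (Ighg1 and Iglc1), beside 0.878% of all genes. In LIGEL relative to GEM, 1 was lower (Ighd, the IgD heavy chain), where 2.33% of all genes were lower. No constant gene passed the unadjusted threshold in GEM against PBS, where the median was 0.92, and 1 of 9 was higher without PBS replicate 5, beside 1.65% of all genes. None of these passed after adjustment.

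Which heavy chain led differed between libraries. On the per kilobase scale Igha was the most abundant of 7 heavy chain constant genes in 16 libraries, Ighg2c in 6 and Ighm in 2. The 2 led by Ighm were PBS replicate 5, where it made up 69.8% of the 7 genes (95% interval 67.3 to 72.1%), and GEM replicate 5, with 58.1% (56.4 to 59.8%). The 6 led by Ighg2c were PBS replicate 6, GEM replicates 2 and 3, IGEL replicates 2 and 4 and LIGEL replicate 2, up to 63.9% in IGEL replicate 4 (63.0 to 64.8%). The lead of Ighg2c over Igha depended on the gene lengths used, 1326 bases for Ighg2c and 2668 bases for Igha. Before division by length, Ighg2c was ahead of Igha only in IGEL replicate 4. Igha was then ahead in the other libraries led by Ighg2c, narrowly so in PBS replicate 6. Ighg1 led nowhere. Its highest share was 6.41% in IGEL replicate 4 (6.01 to 6.84%), followed by 6.09% in IGEL replicate 1 (4.36 to 8.44%, from only 461 reads over the 7 genes), 3.69% in PBS replicate 3 and 3.57% in IGEL replicate 5. These are Wilson intervals of the reads carried to the per kilobase scale, and they cover counting error only. The summed level of the 7 genes ran from 5.29 CPM per kb in IGEL replicate 1 to 165 in IGEL replicate 5, with 164 in IGEL replicate 4, 135 in IGEL replicate 2 and 117 in LIGEL replicate 2. All 6 PBS and all 6 GEM libraries were below 48 CPM per kb.

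The IgG genes resemble each other, and reads that fit more than one can be assigned or dropped by the counting. In the annotated transcripts, 0.393% of the 50-base stretches of Ighg1 also occur in another heavy chain constant gene, against 5.49% for Ighg2c, 4.15% for Ighg2b, 1.58% for Ighg3 and 0.0% for Ighm, Ighd and Igha. The split of reads between Ighg2b and Ighg2c is the least certain.

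**Figure D3:**
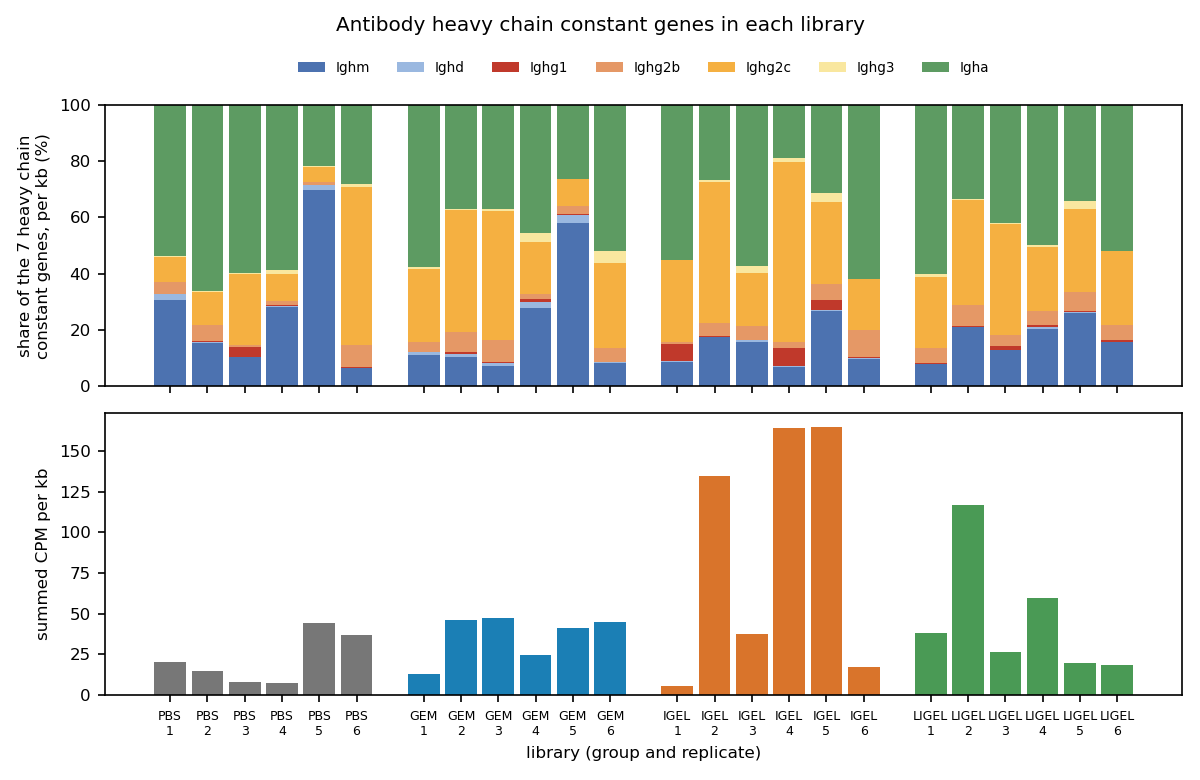
Upper panel, share of each of 7 antibody heavy chain constant genes in their summed CPM per kb (vertical axis, percent) for each of the 24 libraries (horizontal axis). Lower panel, that sum in CPM per kb, which reaches 165 in IGEL replicate 5 and 5.29 in IGEL replicate 1, while PBS replicate 5 and GEM replicate 5 are the libraries led by Ighm.

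Counts for the other B cell genes are read against the 5.79% of all genes that were higher and the 9.25% that were lower in IGEL than in PBS at an unadjusted p below 0.05, or 5.22% and 7.0% without PBS replicate 5. Of 13 tested genes among 15 of the B cell receptor and surface, none passed an unadjusted p below 0.05 in either direction in IGEL against PBS, and the median log2 fold change was -0.02. Without PBS replicate 5, 1 of 14 was higher and the median was 0.13. The 4 most abundant were Cd72 (18.9 ± 7.90 CPM in PBS and 20.6 ± 13.6 in IGEL), Cd180 (16.1 ± 9.41 and 13.2 ± 7.18), Cd37 (10.9 ± 5.70 and 8.49 ± 3.46) and Cd22 (7.80 ± 3.19 and 6.83 ± 4.17), of which Cd72, Cd180 and Cd37 are also made by other white blood cells. Cr2 and Fcer2a, receptors of mature B cells, were below the filter on low counts. Of the 9 B cell transcription factors, Pou2af1 was higher and Bcl11a lower at an unadjusted p below 0.05, 6 of 9 had a lower fitted level, and the median log2 fold change was -0.43, or -0.15 without PBS replicate 5. Pou2af1, a co-activator of octamer-driven antibody genes, was at 0.569 ± 0.485 CPM in PBS and 1.92 ± 1.33 in IGEL (log2 fold change 1.72 ± 0.57). Bcl11a, which is also expressed by dendritic and epithelial cells, was at 3.89 ± 5.04 and 1.06 ± 0.704 CPM (-1.86 ± 0.82). Bcl11a was no longer at that threshold without PBS replicate 5, and limma voom gave 0.83. Pax5, which maintains B cell identity, was at 2.22 ± 3.47 CPM in PBS and 1.55 ± 0.991 in IGEL. Of the 12 genes of B cell receptor signalling, Cd38 was the only one at that threshold (0.41 ± 0.19), and the list median was -0.02.

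Among 12 tested genes of 13 on the plasma cell list, 1 was higher and 2 were lower in IGEL than in PBS at an unadjusted p below 0.05, with a median log2 fold change of 0.13. Without PBS replicate 5, 3 were higher and 1 was lower, with a median of 0.26. Prdm1, the repressor that drives plasma cell formation and is also used by T cells, was at 6.27 ± 1.39 CPM (PBS), 8.63 ± 2.34 CPM (GEM), 9.73 ± 1.52 CPM (IGEL) and 11.2 ± 2.01 CPM (LIGEL) (SD, n = 6 each). Its log2 fold change against PBS was 0.63 ± 0.18 in IGEL (adjusted p = 0.306) and 0.83 ± 0.18 in LIGEL (adjusted p = 0.124), and in LIGEL it passed without PBS replicate 5 (0.82 ± 0.19, adjusted p = 0.0390). Fkbp11, a folding enzyme of secretory cells, was at 72.8 ± 107 CPM in PBS with 290 CPM in its highest library, and at 27.3 ± 5.89 CPM in IGEL (-1.41 ± 0.50). That highest library was PBS replicate 5, and without it the log2 fold change was -0.10. Txndc5, Xbp1 and Sdc1 averaged 277, 235 and 197 CPM over the 24 libraries, and these genes are also made by acinar or epithelial cells. Tnfrsf17, the survival receptor of plasma cells, had reads in 4 libraries and at most 4 reads.

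Genes of germinal centres and lymphoid tissue were tested around Cxcl13. Gcsam, a germinal centre gene, was at 0.140 ± 0.238 CPM for PBS, 0.577 ± 0.255 for GEM, 0.743 ± 0.463 for IGEL and 0.645 ± 0.289 for LIGEL, the only one of 5 tested genes of 8 on its list at an unadjusted p below 0.05 in IGEL against PBS (2.32 ± 0.72). Rgs13, another gene of that list, had 0 reads in all 24 libraries. Of 15 tested genes of 17 on the lymphoid chemokine and lymphoid structure list, 1 was higher, Tnfsf13b, the B cell survival factor BAFF. It was at 5.07 ± 2.09 CPM for PBS, 6.54 ± 1.95 for GEM, 8.99 ± 3.06 for IGEL and 9.99 ± 3.33 for LIGEL, with log2 fold changes against PBS of 0.83 ± 0.32 in IGEL and 0.98 ± 0.32 in LIGEL. Cxcr5, the receptor of CXCL13, averaged 0.15 CPM in PBS and 0.418 CPM in IGEL. Ccl21a had reads in 8 libraries and 13.7 CPM in IGEL replicate 2, and 4 tested genes of 6 for high endothelial venules, through which lymphocytes enter lymphoid tissue, had a median of -0.42 with none at the threshold, and a median of 0.064 without PBS replicate 5. Gcsam, Rgs13, Tnfsf13b, Cxcr5, Ccl21a, Pou2af1, Bcl11a, Pax5, Cr2, Fcer2a, Prdm1 and Tnfrsf17 were picked out with their values known.

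**Figure D4:**
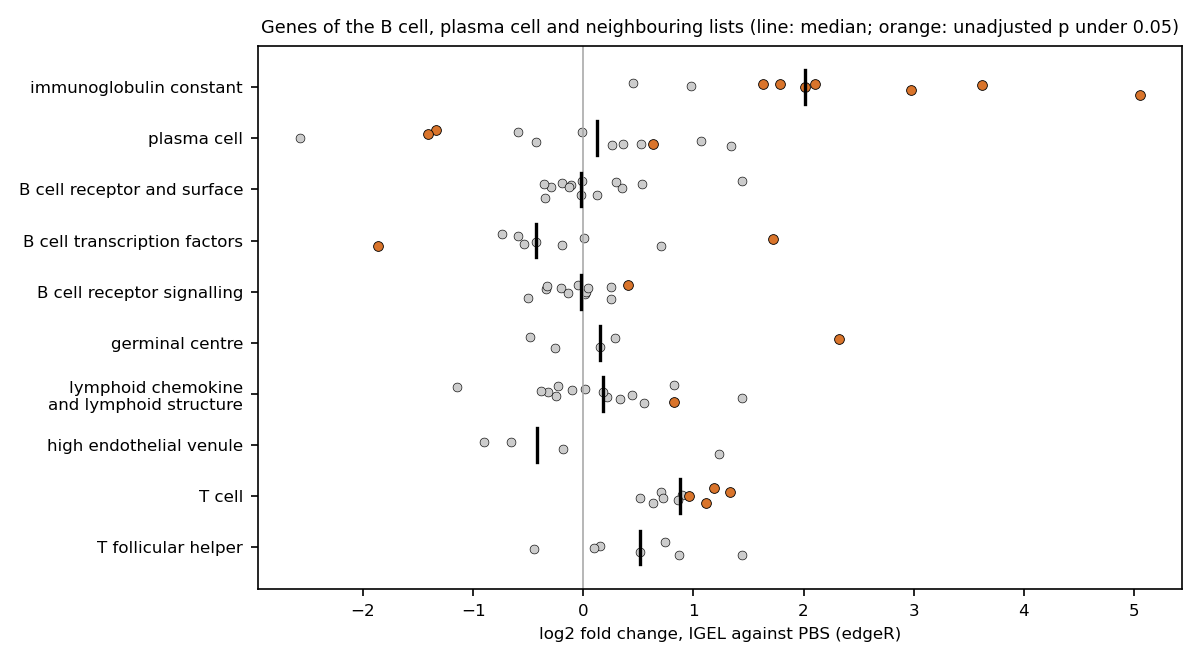
edgeR log2 fold changes of IGEL against PBS (horizontal axis) for the tested genes of 10 lists (vertical axis), with 1 point per gene, orange points at an unadjusted p below 0.05 and a line at each list's median. The antibody constant list has its median at 2.01, while the B cell surface and signalling lists have theirs at -0.02.

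T cell genes were high in some of the same libraries. All 10 T cell genes of the list were tested and had reads in all 24 libraries, 4 of the 10 were higher in IGEL than in PBS at an unadjusted p below 0.05 (Cd8a with a log2 fold change of 0.96 ± 0.43, Trac with 1.19 ± 0.41, Cd5 and Cd3d), and their median was 0.88. Over all genes 5.79% were higher. Without PBS replicate 5, 2 of the 10 were higher, beside 5.22% of all genes, with a median of 0.89. Their summed level ranged from 21.4 to 115 CPM in PBS, 33 to 69.1 CPM in GEM, 26.7 to 170 CPM in IGEL and 33.2 to 88.4 CPM in LIGEL. IGEL replicates 2 and 5 were the highest of their group for both the T cell sum (170 and 116 CPM) and Jchain, and IGEL replicates 1 and 6 the lowest (26.7 and 33.8 CPM). The part of overall lymphocyte content in the antibody values was not tested. Plasmacytoid dendritic cells share several markers with B lineage cells. Of 5 tested genes for these cells none was at the threshold, and the median was -0.21, or -0.013 without PBS replicate 5. Klk1, 1 of the 5, was at 6381 CPM in PBS replicate 5, against a median of 154 CPM over the 24 libraries. Bst2 and Tcf4 averaged 145 and 154 CPM, and Siglech 0.551 CPM. The part of other cells in these values was not tested.

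Among the 36 pairs of members, Jchain and Igkc had the highest correlation over the 24 libraries. Log2 CPM of Jchain and Igkc had Pearson's r of 0.964 and Spearman's rho of 0.953, each with a permutation p of 1e-05, the smallest that 100000 permutations can give (adjusted p = 9e-05 over 36 pairs). The r was 0.949 without the 2 libraries farthest from the Jchain median, 0.953 in the 18 libraries outside columns A1 to A3, 0.998 in the 6 inside, and 0.975 within the 4 groups. Jchain and Ighm had r = 0.850 and rho = 0.859, with the same permutation p. Cd79a and Igkc had r = 0.443 and rho = 0.484 (adjusted permutation p = 0.0388 and 0.0228), with r = 0.436 without the 2 farthest libraries and 0.324 in the 18 libraries. Their r was 0.859 in the 6 libraries of columns A1 to A3 and 0.452 within the 4 groups. Cd79a and Cd79b, whose products form 1 complex, had r = 0.622 and rho = 0.595 (adjusted permutation p = 0.00371 and 0.00563). Cxcl13 was closest to Ighm among the other 8 genes, with r = 0.738 and rho = 0.650 (adjusted permutation p = 0.00018 and 0.00226).

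The 6 lowest values of r among the 36 pairs all involved Ighg1. Its r with Igkc was 0.512 and rho 0.428 (adjusted permutation p = 0.0153 and 0.0464), and r was 0.227 without the 2 farthest libraries, so that this relation rested on those libraries. With Ms4a1 it had r = 0.172 and rho = 0.248 (adjusted permutation p = 0.420 and 0.249). Low read numbers of Ms4a1, Ighg1, Mzb1, Cxcl13, Cd79a and Cd79b add counting error to all their relations. Median reads per library were 28.5 for Cd79a and 38 for Cd79b, but 224.5 for Jchain and 912.5 for Igkc. The part of counting error in the lower r of Cd79a with Igkc was not tested.

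**Figure D5:**
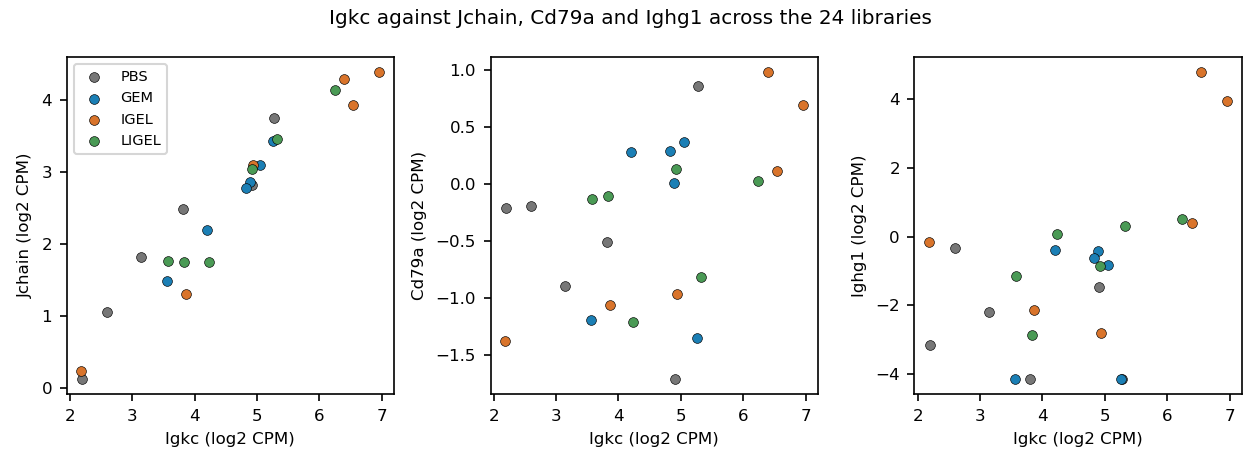
Log2 CPM of Jchain, Cd79a and Ighg1 (vertical axes) against Igkc (horizontal axis), with 1 point per library coloured by group. Jchain follows Igkc closely (r = 0.964), Cd79a less so (r = 0.443), and Ighg1 is high in 2 IGEL libraries.

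Other genes were ranked by their Spearman correlation of log2 CPM with Cd79a, Jchain and Cxcl13 over the 24 libraries, among 14792 genes, and these values are descriptions of libraries that share depth and tissue make-up. Jchain was most like Gimap3 (rho = 0.84), a lymphocyte GTPase, Ffar2 (0.83), a short-chain fatty acid receptor, Igha (0.83), Cd247 (0.81), the zeta chain of the T cell receptor complex, Il18r1 (0.81), Kcna3 (0.80), a lymphocyte potassium channel, Rab37 (0.80) and Chst10 (0.79). Cxcl13 was most like Cxxc4 (0.89), Csad (0.84), Epas1 (0.83), a hypoxia-inducible transcription factor, Ganc (0.83), Pik3r1 (0.82), Trib2 (0.81), Gvin1 (0.81) and Agrn (0.80). Cd79a was most like Ino80dos (0.80), Neb (0.74), Klre1 (0.73), a natural killer cell receptor, Pkib (0.72), St3gal6 (0.71), Adap2os (0.70), Tbx3os1 (0.68) and Stx17 (0.68). Ino80dos, Adap2os and Tbx3os1 are antisense genes, whose counts cannot be told from their partners' without strand. Ranked without PBS replicate 5, the 8 genes shared 4 with these for Cd79a, 6 for Jchain and 3 for Cxcl13.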

How the data were processed

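Total RNA of 24 pancreatic tumour samples was sequenced on Illumina libraries, per the labels' protocols. The authors deposited 1 table of read counts per gene, with a gene length, and its tools were HISAT2, Subread and featureCounts on mouse build mm10, per the submitters' processing notes. The sources used here give neither the annotation release nor the use of strand. The deposited counts were used as whole numbers, and every count column matched 1 sample.

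Genes were kept by filterByExpr (minimum count 10, minimum total 15), which left 19253 of 54532 genes and removed 0.0666% of counts. The main test was the robust quasi-likelihood F test of edgeR 4.0.16 in R 4.3.3, with TMM composition factors, 1 mean per group and 1 spread estimated over all 24 libraries. P-values were adjusted over all kept genes by Benjamini and Hochberg, and a call is an adjusted p below 0.05. CPM used the TMM-scaled totals, and log2 CPM a prior count of 2. Fold changes have an SE or a 95% normal interval, shares have Wilson 95% intervals, and correlations have 100000 permutations (Python 3.11.15, SciPy 1.17.1). The scripts were tested on simulated data.

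Alternatives were DESeq2 1.42.0, limma voom 3.58.1 with sample weights, RLE or no composition factors, no filter, the compared groups only, the replicate number as a block, each library left out, and the columns A1 to A3 left out or as a term. Within the groups, the closest pair of libraries differed by a chi-square of 17 per gene, so neither was a mere recount of the other. Pairs from different groups were not compared. The value cannot tell whether 2 libraries come from the same tumour. Promoter windows came from a RefSeq table of GRCm38.p6, and shared 50-base stretches from GENCODE transcripts. Named genes were the 9 members, genes among the 4 most abundant of each list, any list gene called by edgeR (there was none), and the 8 genes most like Cd79a, Jchain and Cxcl13. Every other gene was named with its values known. The members and lists were chosen with earlier results of these data known.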

Additional observations from a re-analysis of the deposited data

Results flagged for a closer look

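In 6 of 36 combinations of a gene and a group, 1 library stood far from the other 5 by Dixon's test on CPM. Each was the highest of its group. The rule picks about 1 in 20 by chance only for normally spread values. CPM was skewed to high values, and the 36 tests share libraries, so the 6 flags cannot be set against that share. For Ighm, PBS replicate 5 was at 58.4 CPM where the next PBS library was at 11.8 CPM, and GEM replicate 5 was at 45.2 CPM where the next was at 13 CPM. For Cxcl13, the same libraries stood out, PBS replicate 5 at 3.44 CPM (next 0.894 CPM) and GEM replicate 5 at 4.06 CPM (next 0.669 CPM). For Ms4a1, GEM replicate 5 was at 1.13 CPM (next 0.407 CPM) and LIGEL replicate 4 at 0.538 CPM (next 0.188 CPM).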

How the results depend on the processing

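No member was called in any comparison under any edgeR setting. Among the other tools, DESeq2 called 1 member (Ighg1 in IGEL against PBS). Over all genes tested against PBS, where edgeR called 0, DESeq2 called 85 (IGEL) and 1229 (LIGEL), and limma voom 66 (GEM), 384 (IGEL) and 728 (LIGEL). Leaving out 1 library gave 0 to 18 genes for IGEL against PBS (18 without PBS replicate 5) and 0 to 173 for LIGEL against PBS (173 without PBS replicate 5 and 2 without PBS replicate 4). The counts at an unadjusted p in IGEL against PBS were added after the data were seen. For the antibody constant genes the count was 7, with 4 when the 12 libraries compared were fitted alone and 5 to 7 with 1 library left out. For the 9 members it was 2, with 6 without PBS replicate 5 and columns A1 to A3, and 2 to 5 with 1 library left out. The share of all genes at that threshold is given only for the main fit and the fit without PBS replicate 5. Counts from the other fits, the replicate block included, cannot be set against it. Small fold changes turned sign. Cd79b in IGEL against PBS was 0.28 by voom, 0.18 without a composition factor, 0.14 without columns A1 to A3, 0.40 without those and PBS replicate 5, and -0.34 to 0.19 with 1 library left out. Cd79b in LIGEL against IGEL was -0.16 and -0.17 without columns A1 to A3, with or without PBS replicate 5, and -0.11 to 0.41 with 1 library left out. Cxcl13 in LIGEL against PBS was 0.40 by voom, 0.29 with the replicate block, 0.49 with a term for columns A1 to A3, 0.36 without those columns and PBS replicate 5, and -0.69 to 0.35 with 1 library left out. Jchain in LIGEL against PBS was -0.078 without columns A1 to A3, and Bcl11a in IGEL against PBS was 0.83 by voom. With 1 library left out, Cd79a in IGEL against PBS was -0.033 to 0.65 and Ms4a1 in IGEL against GEM -0.91 to 0.043. The cause was not tested. Of the fold changes of members and named list genes, 446 kept their side, 12 reversed and 7 newly passed over the settings, and 564, 12 and 1 with 1 library left out. Those of list genes were added after the data were seen, and newly passing ones were Gcsam (3.34, adjusted p = 0.0349), Prdm1 (0.78, adjusted p = 0.0430) and Trac (1.59, adjusted p = 0.0320) by voom in IGEL, and Prdm1 (0.81 by DESeq2, 1.01 by voom) and Tnfsf13b (0.96 by DESeq2, adjusted p = 0.0443) in LIGEL. Genes most like Cd79a shared 5 of 8 by Pearson correlation and 4 without PBS replicate 5, and those most like Cxcl13 4 and 3. Without a composition factor the median of all genes in LIGEL against PBS moved from -0.03 to 0.10. With the replicate number as a block edgeR called 0 members and 0 genes in all 6 comparisons, and at an unadjusted p 5 antibody constant genes and 2 members were higher in IGEL than in PBS. The labels do not say whether libraries of the same number share more than that number. The 36 same-numbered pairs correlated from -0.593 to 0.708, and 6 of 24 libraries were closest to their own number. These values cannot decide it for single pairs. The lowest median read number among the members was 6 per library, for Ms4a1.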
